A study of Mus musculus with 8 samples.

Results

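The intermediate filament and lamin genes described here are Des, Vim, Nes, Synm, Lmna, Lmnb1, Lmnb2, Krt8 and Krt18. They were taken by symbol from the deposited count tables, which held all 9 of them among 24062 genes, and all 9 were among the 15508 genes with enough counts to be tested. Total RNA depleted of ribosomal RNA was sequenced from heart left ventricle (free wall) of male C57BL/6 mice aged 8-12 weeks. One surgery was myocardial infarction (MI), in which the left anterior descending coronary artery was tied off and ischemic tissue was taken. The other was a sham operation without ligation. The 4 groups were MI at 1 day, sham at 1 day, MI at 3 days and sham at 3 days after surgery, each with 2 mice and 1 library per mouse. No genetic change or drug is named for any group. Since no replicate number stands in the headers of the count tables, A and B name the first and the second column of a group. Both sham columns of 1 day bear the same library number in their header, but their values differ, and the transcript table of that day names 2 separate sham libraries.

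Intermediate filaments are rope-like polymers that give cells and nuclei mechanical strength, and each cell lineage builds them from its own set of proteins. Heart muscle cells rely on desmin (Des), which ties neighbouring myofibrils together at the Z-discs and anchors them to intercalated discs, with synemin (Synm) as a larger partner. Fibroblasts, endothelial cells and leukocytes carry vimentin (Vim), often with nestin (Nes), a large protein that needs a partner such as vimentin to form filaments. The lamins line the inner nuclear membrane of all these cells: Lmna encodes the A-type lamins A and C, while Lmnb1 and Lmnb2 encode the B-type lamins. Krt8 and Krt18 encode the keratin pair of simple epithelia, which also occurs in mesothelium.

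After MI, Des still led these 9 transcripts per kilobase at 1 day, as in sham hearts, and Vim led at 3 days. At 3 days Des was 4.02-fold lower and Vim 6.61-fold higher than in sham hearts. Nes and Lmnb1 were higher after MI on both days, by 2.77-fold and 3.95-fold at 1 day and by 4.0-fold and 7.86-fold at 3 days. Synm was lower at 3 days, and Lmna and Lmnb2 were higher at 3 days. Krt18, at low counts, was called higher on both days, but its call at 1 day was lost when either MI library of that day was left out. At 1 day Des was not called, with MI libraries 2.04-fold apart on either side of sham, and it was lower without MI library A (log2 -0.68, adjusted p = 0.00986 by edgeR). On that day 9 of 10 cardiomyocyte markers had fallen, beside 19.7% of all genes.

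The first 100 bases upstream of the transcription start are shown for both members that fell at 3 days, Des and Synm. They are also shown for Vim and Nes, which are among the non-muscle filament genes that rose. They are RefSeq sequences of GRCm38.p6, printed from 5′ to 3′ on the gene's own strand. The Des window is chr1:75360192-75360291 and the Vim window chr2:13574211-13574310, both on the plus strand. The Nes window is chr3:87970993-87971092 on the plus strand and the Synm window chr7:67759743-67759842 on the minus strand. Capitals mark matches, on either strand, to the motifs TATAAA (the TATA box), the CCAAT box (seen as ATTGG from the other strand) or GGGCGG (the GC box, seen as CCGCCC). None of these matches overlapped another.
Des: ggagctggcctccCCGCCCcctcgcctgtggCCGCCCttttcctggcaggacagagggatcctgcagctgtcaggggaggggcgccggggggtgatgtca
Synm: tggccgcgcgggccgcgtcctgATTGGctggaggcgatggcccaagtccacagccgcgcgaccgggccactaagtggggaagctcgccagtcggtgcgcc
Vim: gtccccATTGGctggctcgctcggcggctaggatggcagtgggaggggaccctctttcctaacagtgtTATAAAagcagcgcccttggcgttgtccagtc
Nes: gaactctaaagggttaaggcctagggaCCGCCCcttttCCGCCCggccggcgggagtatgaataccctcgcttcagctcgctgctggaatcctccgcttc

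Vim alone among these 4 had a TATAAA, whose first base lay at position -32 from the start, beside a CCAAT at -94 to -90. Des and Nes each had 2 matches to GGGCGG, in Des at -87 to -82 and -69 to -64, and in Nes at -73 to -68 and -62 to -57. Synm had 1 CCAAT, at -78 to -74. These matches lie in the 100 bases shown. In the 250 bases upstream, 12.4% of 32851 promoter windows held TATAAA, 33.8% held CCAAT and 32.7% held GGGCGG. Over 250 bases Vim had a further CCAAT, at -196 to -192. The AP-1 pattern TGANTCA, found in 6.75% of windows, had no match in the 250 bases of these 4 genes. The matches describe letters only and were not tied to any measurement here.

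The libraries held 7382490 to 25041386 gene counts, and the shallowest was B of MI at 1 day. Levels are given as CPM, counts per 1000000 counts after TMM scaling of the library sizes, and 3 counts were worth 0.102 to 0.369 CPM. Log2 fold changes and their standard errors (SE) come from a fit of all 8 libraries in edgeR. P-values come from its 2-sided quasi-likelihood test, adjusted by Benjamini-Hochberg over all 15508 genes, and a gene is said to have risen or fallen where the adjusted p was under 0.05. The B libraries of 1 day stood apart: 92.3% of 1503 chemosensory receptor genes had counts in MI library B and 50.6% in sham library B, against 23.5% and 5.19% in the A libraries and 4.32 to 8.05% at 3 days. The MI libraries of 1 day agreed least, with a Spearman correlation of 0.954, against 0.981 to 0.992 in the other groups. Library A was above library B there for Des (2.04-fold), Vim (1.78), Nes (1.27), Lmna (1.75), Lmnb1 (2.02) and Lmnb2 (2.11). Library B was above A for Synm (1.02), Krt18 (1.06) and Krt8 (5.15). These gaps, and the shifts with either library left out, rest on the same 2 libraries. Sample numbers in the headers lay apart between MI and sham, so a batch that coincided with surgery cannot be told apart from it. Cardiomyocyte markers were abundant in sham hearts, where 10 of them summed to 127000 to 204000 CPM. In bulk tissue fewer cells of a type and less RNA per cell cannot be told apart.

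**Figure D1:**
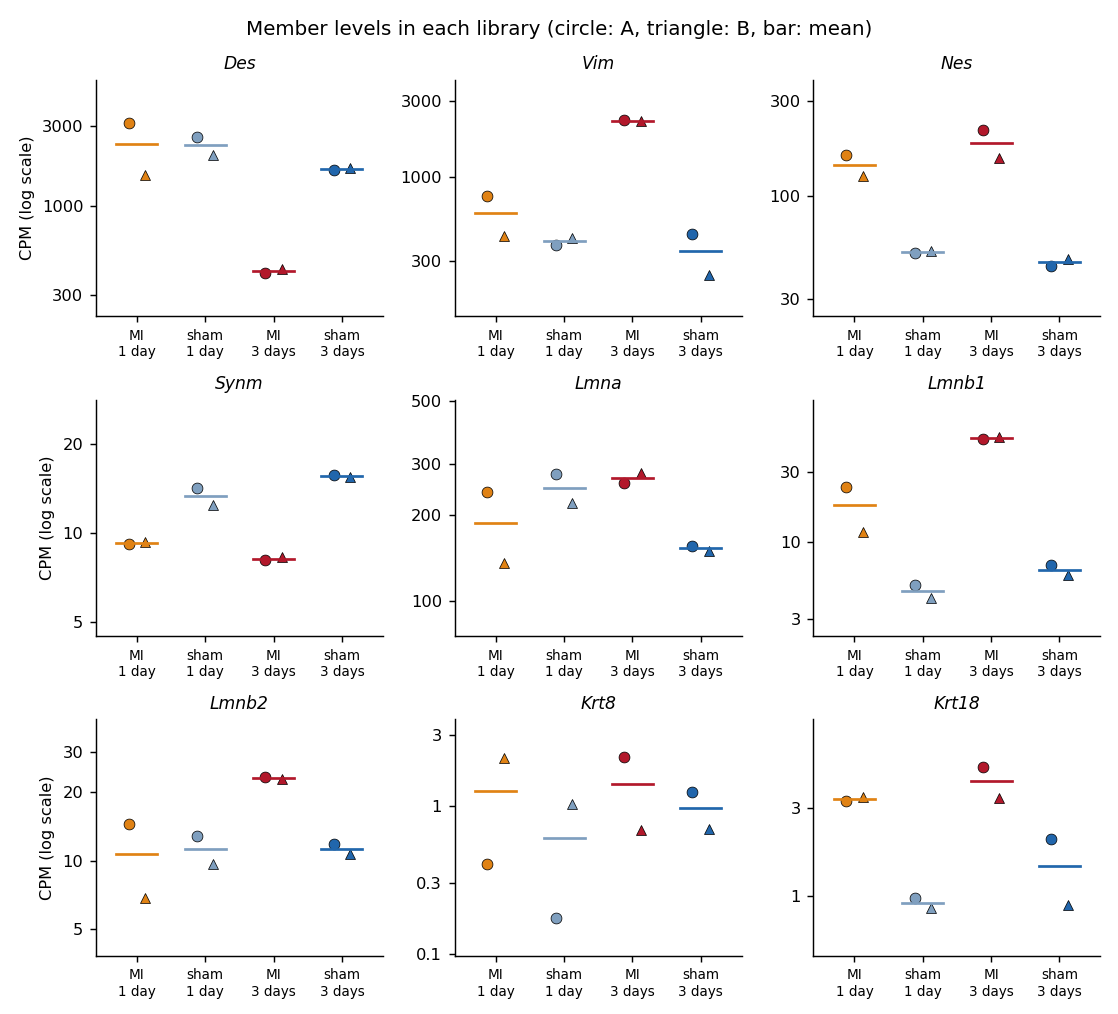
Level of each of the 9 genes in every library, in CPM on a log axis, for MI and sham at 1 and 3 days. Circles are library A, triangles library B and bars the mean of both. Des sits at 404 and 424 CPM in the MI libraries at 3 days, below every other library, and Vim, Lmnb1 and Lmnb2 sit highest in the same libraries.

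At 3 days Des, the muscle-type filament protein, had 404 and 424 CPM in the MI libraries A and B, against 1640 and 1690 CPM in the sham libraries. The groups did not overlap and each differed little within itself. On the log2 scale the change was -2.01 (SE 0.30, adjusted p = 0.000339 by edgeR's quasi-likelihood test). At 1 day Des had 3120 and 1530 CPM in the MI libraries, against 2590 and 2010 CPM in the sham libraries. One MI library lay above and the other below both sham libraries, 2.04-fold apart. The log2 fold change at 1 day was 0.02 (SE 0.29, adjusted p = 0.967 by edgeR), with a 95% interval of -0.55 to 0.58. Without MI library A of 1 day it was -0.68 with an adjusted p of 0.00986, a fall, and without MI library B it was 0.44 with an adjusted p of 0.0666. The change in the MI effect from 1 to 3 days was -2.03 (SE 0.41, adjusted p = 0.00737), and this call was lost without sham library B of 1 day (-1.79, adjusted p = 0.0793).

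Within the MI hearts, Des was 5.63-fold lower at 3 days than at 1 day (log2 -2.49, SE 0.31, adjusted p = 0.00019 by edgeR). The mean levels were 2330 ± 1120 CPM in MI at 1 day, 2300 ± 404 CPM in sham at 1 day, 414 ± 14 CPM in MI at 3 days and 1670 ± 30.7 CPM in sham at 3 days (SD, n = 2 each). MI at 3 days was lowest, while MI and sham at 1 day, and sham at 3 days and at 1 day, were not told apart by the test. Des lies at chr1:75360292-75368579 (GRCm38.p6), and its 3′ end overlaps the annotated gene Gm15179 (chr1:75368210-75375015), so reads from the shared stretch cannot be told apart without a stated strand setting. Of the reads assigned to Des transcripts, 99.4 to 99.9% went to a single transcript of 9 exons in every library.

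Of 10 cardiomyocyte markers, 9 were lower on both days, whereas Des and the marker Ttn passed the test only at 3 days. The 10 markers summed to 107000 and 115000 CPM in the MI libraries at 1 day, against 204000 and 178000 CPM in the sham libraries. Of these sums Ttn made up 55800 and 77900 CPM after MI, and 89000 and 71000 CPM after sham surgery. Its change at 1 day was -0.26 log2 units (SE 0.34, adjusted p = 0.569 by edgeR). At 3 days the sums were 8840 and 8860 CPM after MI, against 127000 and 191000 CPM after sham surgery, with all 10 lower and a median log2 fold change of -4.10. Ttn then made up 4550 and 4170 CPM after MI, and 48100 and 105000 CPM after sham surgery. At 1 day 9 of the 10 were lower, with a median of -1.21, beside 0.02 for Des. The cardiac myosin heavy chain gene Myh6, for example, changed by -1.55 at 1 day and -5.16 at 3 days on the log2 scale. Desmin is also made by smooth muscle, whose markers summed to 755 and 804 CPM after MI and 895 and 858 CPM after sham surgery at 1 day, with 1 of 8 lower. At 3 days that sum was 1190 and 1180 CPM after MI and 1050 and 828 CPM after sham surgery, with 4 of 8 higher and 3 lower. Over all genes, 19.7% fell at 1 day, and 31.7% rose and 23.7% fell at 3 days. The part of the muscle cell content in the level of Des was not tested.

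Synm, the desmin partner (chr7:67730161-67759742), had 8.08 and 8.27 CPM in the MI libraries at 3 days, against 15.7 and 15.5 CPM in the sham libraries. The groups were well apart, and the log2 fold change was -0.93 (SE 0.21, adjusted p = 0.0038 by edgeR), against -2.46 (adjusted p = 0.0122) with transcript reads summed to genes. At 1 day Synm had 9.17 and 9.35 CPM after MI, against 14.2 and 12.4 CPM after sham surgery. These groups also did not overlap, but the change of -0.52 log2 units (SE 0.23, adjusted p = 0.0979 by edgeR) missed the threshold. The MI effect on Synm did not pass the test of a difference between days (-0.40, SE 0.31, adjusted p = 0.374). The deposited tables disagree on the depth of Synm: its gene counts were 12.6 to 76.0 times its transcript reads in a library, with a median of 20.2, while the other members had medians of 1.11 to 2.14. Only 79 transcript reads of Synm were recorded over all 8 libraries.

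Vim, the filament protein of mesenchymal cells, endothelium and leukocytes (chr2:13574311-13582826), had 2280 and 2260 CPM in the MI libraries at 3 days, against 444 and 242 CPM in the sham libraries. Both MI libraries were about equal and far above sham, and the log2 fold change was 2.73 (SE 0.33, adjusted p = 9.29e-05 by edgeR). At 1 day Vim had 760 and 427 CPM after MI, against 377 and 416 CPM after sham surgery. The groups did not overlap, but MI library B exceeded the higher sham library only slightly. The change of 0.58 log2 units (SE 0.31, adjusted p = 0.167 by edgeR) did not pass the test. It passed without MI library B (0.94, adjusted p = 0.0405) and with library size alone as the scaling (0.85, adjusted p = 0.0442), and it was 0.01 without MI library A (adjusted p = 0.976).

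The MI effect on Vim grew by 2.14 log2 units from 1 to 3 days (SE 0.45, adjusted p = 0.00811 by edgeR). This call was lost without sham library B of 1 day (2.14, adjusted p = 0.0529), MI library A of 3 days (1.96, adjusted p = 0.0568) or MI library B of 3 days (1.96, adjusted p = 0.0628). Within MI hearts Vim was 3.82-fold higher at 3 days than at 1 day (log2 1.93, SE 0.32, adjusted p = 0.00108). The mean levels were 594 ± 235 CPM in MI at 1 day, 397 ± 27.7 CPM in sham at 1 day, 2270 ± 16.6 CPM in MI at 3 days and 343 ± 143 CPM in sham at 3 days (SD, n = 2 each). MI at 3 days stood above the rest, and the test told neither MI at 1 day from sham at 1 day nor the sham groups from each other.

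Nes, a stem and progenitor cell filament protein also found in endothelium (chr3:87971093-87980451), rose on both days. At 1 day it had 160 and 126 CPM in the MI libraries, against 51.3 and 52.2 CPM in the sham libraries. Both MI libraries lay well above the sham libraries, by 1.47 log2 units (SE 0.21, adjusted p = 0.000858 by edgeR). At 3 days it had 214 and 154 CPM after MI, against 44.2 and 47.9 CPM after sham surgery. The groups were again apart, by 2.0 log2 units (SE 0.21, adjusted p = 3.84e-05). These calls were kept with each of the 8 libraries left out in turn, with adjusted p of 0.000596 to 0.0260 at 1 day. The effect did not pass the test of a change between days (0.53, SE 0.29, adjusted p = 0.213), nor did MI at 3 days against MI at 1 day (0.36, SE 0.20, adjusted p = 0.172). With library size alone as the scaling, that last comparison passed (0.53, adjusted p = 0.0406).

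Markers of cells that carry vimentin and nestin moved as follows. Over all genes, 19.3% rose and 19.7% fell at 1 day, and 31.7% rose and 23.7% fell at 3 days. Fibroblast markers summed to 1450 and 1500 CPM in MI hearts at 1 day, against 1750 and 2120 CPM in sham hearts, with 1 of 8 higher and 3 lower. At 3 days they summed to 10000 and 9640 CPM after MI, against 3520 and 1590 CPM after sham surgery, with 5 of 8 higher. DESeq2 called 4 of the 8 higher and 1 lower at 3 days. Postn, named after its values were seen, made up 4400 and 4060 CPM of these sums after MI, and 179 and 121 CPM after sham surgery. Myeloid markers summed to 2480 and 1690 CPM after MI at 1 day, against 732 and 832 CPM after sham surgery, with 7 of 10 higher. By DESeq2, or at an unadjusted p under 0.05 in edgeR, 1 of the 10 was lower at 1 day. Csf1r and Lyz2, named after their values were seen, then stood at log2 -0.74 and -0.6 (adjusted p = 0.0593 and 0.169 by edgeR).

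At 3 days the myeloid sums were 6490 and 6100 CPM after MI, against 1280 and 660 CPM after sham surgery, with 10 of 10 higher. Of these sums Lyz2 made up 4200 and 4290 CPM after MI, and 685 and 350 CPM after sham surgery. Endothelial markers stayed closer, at 1420 and 1370 CPM after MI and 1190 and 1090 CPM after sham surgery at 1 day. At 3 days they were 1250 and 989 CPM after MI and 1080 and 914 CPM after sham surgery. Of the 8 endothelial markers, 4 were higher and 1 was lower at 1 day, beside 19.3% and 19.7% of all genes. At 3 days 3 of them were higher and 1 lower, beside 31.7% and 23.7% of all genes. Schwann and glial markers, another nestin-bearing type, summed to 17.2 to 35.2 CPM in the 8 libraries, with 0 of 6 called at 1 day by edgeR, DESeq2 or limma-voom, or at an unadjusted p under 0.05, and 1 higher and 1 lower at 3 days. The part of any of these cell types in the levels of Vim and Nes was not tested.

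**Figure D2:**
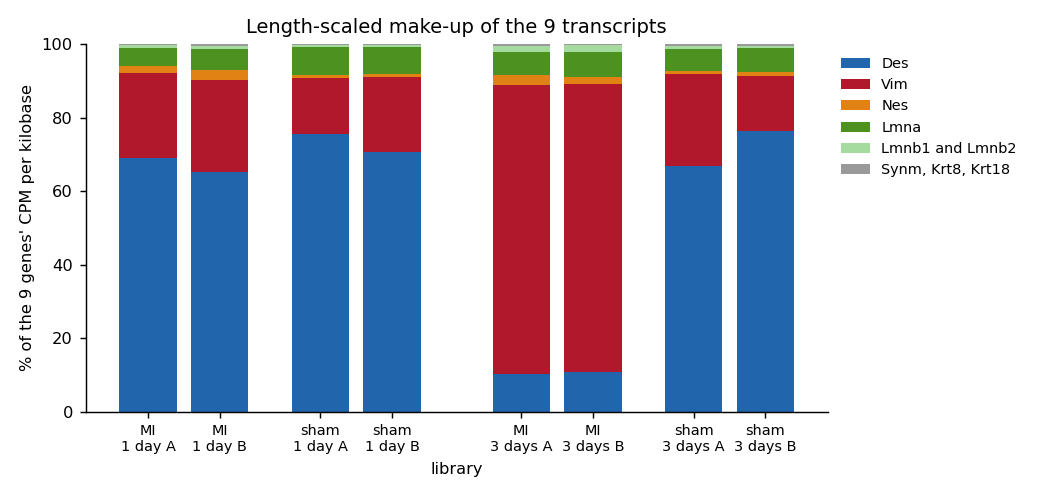
Share of each gene in the summed CPM per kilobase of the 9 genes, in percent, for each of the 8 libraries. Des takes 65.2 to 76.2% in every library except both MI libraries of 3 days, where it takes 10.1 and 10.7% and Vim takes 78.7 and 78.4%.

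To compare levels between genes, CPM was divided by the length of the transcript with the most exons. The 9 genes summed to 1500 and 777 CPM per kilobase in MI at 1 day, against 1130 and 941 in sham at 1 day. The sums at 3 days were 1320 and 1310 CPM per kilobase after MI, against 813 and 732 after sham surgery. Desmin led in sham tissue, at 75.5 and 70.7% of the sum at 1 day and 66.8 and 76.2% at 3 days, with vimentin at 15.1 to 24.9% in these 4 libraries. After MI desmin still led at 1 day, at 68.9 and 65.2%, with vimentin at 23.2 and 25.1%. At 3 days the order had turned, with vimentin at 78.7 and 78.4% and desmin at 10.1 and 10.7%. Lmna took 5.05 to 7.77% in every library and ranked after both.

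The count ratio of Vim to Des, which does not depend on library scaling, was 0.243 and 0.279 in MI at 1 day, against 0.146 and 0.207 in sham at 1 day. At 3 days it was 5.65 and 5.33 after MI, against 0.270 and 0.144 after sham surgery. Its log2 value was higher after MI by 0.58 at 1 day and by 4.80 at 3 days. The Nes to Des ratio was higher by 1.52 and 3.99 log2 units. Both gave p = 0.0556 in a 2-sided exact permutation test of surgery within days. This was the smallest p that the 36 arrangements allow, so the design could not pass 0.05 for any of the 6 ratios examined.

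**Figure D3:**
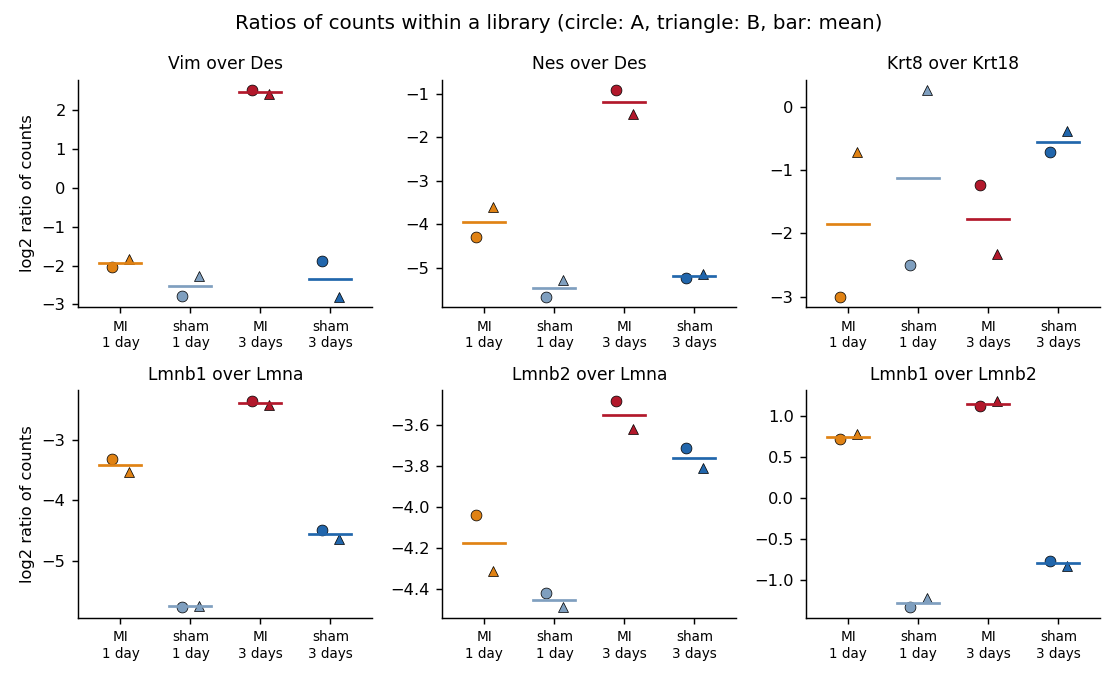
Ratio of the counts of member pairs within each library, on a log2 axis, for MI and sham at 1 and 3 days; circles are library A, triangles library B and bars their mean. Vim over Des lies far above all other groups in MI at 3 days, and Lmnb1 over Lmnb2 lies on opposite sides of 0 in MI, at 0.72 to 1.19, and sham, at -1.34 to -0.77, on both days.

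Among the lamins, Lmnb1 rose on both days. At 1 day it had 23.9 and 11.8 CPM in the MI libraries, against 5.10 and 4.14 CPM in the sham libraries. Library A was 2.02-fold above library B after MI, yet both exceeded sham, and the log2 fold change was 1.98 (SE 0.34, adjusted p = 0.00197 by edgeR). Without MI library A it was 1.26 (adjusted p = 0.00449). At 3 days Lmnb1 had 50.4 and 52.0 CPM after MI, against 7.01 and 6.00 CPM after sham surgery. Its change of 2.98 log2 units (SE 0.30, adjusted p = 3.04e-05) lay above that of Vim by less than their SEs, and without sham library A of 3 days Vim was higher (3.23) than Lmnb1 (3.10). Within MI hearts Lmnb1 was 2.80-fold higher at 3 days than at 1 day (log2 1.49, SE 0.28, adjusted p = 0.00238). The change of its MI effect between days was 0.99 (SE 0.46, adjusted p = 0.142), and 1.5 without MI library A of 1 day (adjusted p = 0.00949).

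Lmnb2, the other B-type lamin (chr10:80901363-80918245), passed the test at 3 days and not at 1 day. At 1 day it had 14.5 and 6.89 CPM after MI, against 12.9 and 9.72 CPM after sham surgery. The groups overlapped, and the log2 fold change was -0.03 (SE 0.33, adjusted p = 0.951 by edgeR), with a 95% interval of -0.67 to 0.61. By 3 days it stood at 23.2 and 22.8 CPM after MI, against 11.9 and 10.7 CPM after sham surgery. These groups were apart, with a change of 1.03 log2 units (SE 0.29, adjusted p = 0.013). This call was lost without MI library A (0.80, adjusted p = 0.134), MI library B (0.81, adjusted p = 0.136) or sham library B of 3 days (0.96, adjusted p = 0.0828). MI at 3 days against MI at 1 day gave 1.05 (SE 0.31, adjusted p = 0.0196). That call was lost without MI library B of 1 day (0.67, adjusted p = 0.0516), MI library A of 3 days (0.90, adjusted p = 0.124) or MI library B of 3 days (0.91, adjusted p = 0.132), and with transcript reads summed to genes (0.76, adjusted p = 0.0629). The change of the MI effect between days missed the threshold (1.06, SE 0.44, adjusted p = 0.107) and passed without MI library A of 1 day (1.62, adjusted p = 0.0115).

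Lmna, the A-type lamin gene (chr3:88481148-88509932), had the highest CPM per kilobase of the lamins in every group. It had 258 and 280 CPM in the MI libraries at 3 days, against 156 and 150 CPM in the sham libraries. The groups did not overlap, and the change was 0.82 log2 units (SE 0.25, adjusted p = 0.0189 by edgeR). It missed the threshold without MI library A (0.66, adjusted p = 0.186), MI library B (0.53, adjusted p = 0.299), sham library A (0.85, adjusted p = 0.0977) or sham library B of 3 days (0.80, adjusted p = 0.126), and with transcript reads (0.61, adjusted p = 0.0625). At 1 day Lmna had 239 and 136 CPM after MI, against 277 and 219 CPM after sham surgery. These groups overlapped, with a change of -0.40 log2 units (SE 0.25, adjusted p = 0.226), and without MI library A it fell by 0.96 (adjusted p = 0.00288).

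The MI effect on Lmna differed between days by 1.22 (SE 0.35, adjusted p = 0.0327 by edgeR). Without sham library A of 1 day the value was 1.09 (adjusted p = 0.158), without sham library B of 1 day 1.44 (adjusted p = 0.0814) and with transcript reads 0.94 (adjusted p = 0.0763). Without MI library A or B of 3 days it was 1.09 (adjusted p = 0.171) or 0.96 (adjusted p = 0.241). Without sham library A or B of 3 days it was 1.31 (adjusted p = 0.0887) or 1.25 (adjusted p = 0.129). Its sham level at 3 days lay below that at 1 day, by -0.70 on the log2 scale (SE 0.25, unadjusted p = 0.0195, adjusted p = 0.631). MI at 3 days against MI at 1 day gave 0.52 (SE 0.25, adjusted p = 0.116), and passed with library size alone (0.71, adjusted p = 0.0230) or without MI library A of 1 day (0.91, adjusted p = 0.00315). Lamins A and C are made from this gene by alternative splicing and were not separated here. The gene counts join them, and the reads listed for 7 Lmna transcripts were not sorted into lamin A and C.

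The balance between lamins was read from count ratios. The Lmnb1 to Lmnb2 count ratio was 1.64 and 1.71 in MI at 1 day, against 0.395 and 0.426 in sham at 1 day. At 3 days it was 2.17 and 2.28 after MI, against 0.587 and 0.562 after sham surgery. Per kilobase, the ratio was 2.04 to 2.83 in the MI libraries and 0.490 to 0.730 in the sham libraries. The count ratio was higher after MI by 2.03 and 1.95 log2 units at 1 and 3 days.

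The Lmnb1 to Lmna ratio was 0.10 and 0.0867 in MI at 1 day, against 0.0184 and 0.0189 in sham at 1 day. At 3 days it was 0.195 and 0.186 after MI, against 0.0448 and 0.0401 after sham surgery. Its difference was 2.32 log2 units at 1 day and 2.17 at 3 days, while Lmnb2 over Lmna moved by 0.29 and 0.21. These 3 ratios each gave p = 0.0556 in the exact permutation test, the smallest it allows. Genes of dividing cells, in which the lamina is taken apart and rebuilt, were not called at 1 day (0 of 10 by edgeR, DESeq2 and limma-voom, and 0 at an unadjusted p under 0.05), where they summed to 62.6 and 81.1 CPM after MI and 50.8 and 84.6 CPM after sham surgery. At 3 days they summed to 1820 and 1980 CPM after MI, against 145 and 102 CPM after sham surgery, with 10 of 10 higher. Over all genes, 39.0% were called at 1 day in either direction and 31.7% rose at 3 days. Of 10 myeloid markers, 7 were higher at 1 day and 10 at 3 days by edgeR, beside 19.3% and 31.7% of all genes. The part of dividing cells, and of myeloid cells, in the level of Lmnb1 was not tested.

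Krt18, the type I keratin of simple epithelia, was low throughout. At 1 day it had 3.25 and 3.44 CPM in the MI libraries (40 and 28 counts), against 0.985 and 0.862 CPM in the sham libraries (17 and 15 counts). The groups did not overlap, and the log2 fold change was 1.84 (SE 0.57, adjusted p = 0.0294 by edgeR). The call ended without MI library A of 1 day (1.8, adjusted p = 0.0549), MI library B of 1 day (1.81, adjusted p = 0.0530), sham library A of 1 day (1.88, adjusted p = 0.147) or sham library B of 1 day (1.68, adjusted p = 0.168). It also ended without MI library A of 3 days (1.8, adjusted p = 0.0539), MI library B of 3 days (1.8, adjusted p = 0.0537) or both B libraries of 1 day (1.71, adjusted p = 0.155). At 3 days Krt18 had 5.0 and 3.4 CPM after MI (122 and 100 counts), against 2.03 and 0.903 CPM after sham surgery (38 and 17 counts). The log2 fold change was 1.5 (SE 0.43, adjusted p = 0.0143), and the call was lost without MI library A (1.00, adjusted p = 0.173) or sham library B of 3 days (1.04, adjusted p = 0.113). Without sham library A of 3 days it was 2.2 (adjusted p = 0.0129). The direction of Krt18 was the same on both days with every library left out.

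Krt8, its type II partner, had 0.406 and 2.09 CPM in the MI libraries at 1 day (5 and 17 counts), against 0.174 and 1.03 CPM in the sham libraries (3 and 18 counts). Here the B library exceeded the A library in both groups, by 5.15-fold after MI and 5.95-fold after sham surgery, and the groups overlapped. The log2 fold change was 0.84 (SE 1.12, adjusted p = 0.575 by edgeR). At 3 days Krt8 had 2.13 and 0.681 CPM after MI (52 and 20 counts), against 1.23 and 0.691 CPM after sham surgery (23 and 13 counts). The log2 fold change was 0.50 (SE 0.78, adjusted p = 0.618), with a 95% interval of -1.04 to 2.03. A pseudogene of Krt8 is annotated in the mouse genome, and it is not stated how reads that match both were counted. The Krt8 to Krt18 count ratio ranged from 0.125 to 1.2 over the 8 libraries and gave p = 0.278 in the exact permutation test of surgery. The pair lies 23.9 kb apart on chromosome 15 (Krt8 at chr15:101996711-102004342, Krt18 at chr15:102028216-102032026, GRCm38.p6).

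Markers of the cells that make simple keratins were low and variable. Mesothelial and epicardial markers summed to 14.2 and 27.3 CPM after MI at 1 day, against 14.2 and 11.8 CPM after sham surgery. At 3 days they summed to 38.6 and 15.9 CPM after MI, against 37.2 and 17.4 CPM after sham surgery. On either day 0 of the 7 tested were called by edgeR, DESeq2 or limma-voom, or passed at an unadjusted p under 0.05, and library A exceeded B in both groups at 3 days, as for Krt8. Over all genes, edgeR called 39.0% at 1 day and 55.4% at 3 days. Epithelial markers summed to 5.11 and 14.9 CPM after MI at 1 day, against 0.290 and 0.690 CPM after sham surgery, and to 3.48 and 2.38 CPM after MI at 3 days, against 0.214 and 0.372 CPM after sham surgery. Of these 7 only Cdh1, the E-cadherin gene, had enough counts to be tested. It had 4.06 and 7.5 CPM after MI at 1 day, against 0 and 0.0575 CPM after sham surgery (adjusted p = 0.00111 by edgeR). At 3 days it had 2.83 and 1.46 CPM after MI, against 0 and 0.0531 CPM after sham surgery (adjusted p = 0.00241). Counts were lacking for 2 of the 7 in MI library A of 3 days and for 2 to 5 in the sham libraries. The sum of 14.9 CPM is that of MI library B of 1 day, where 92.3% of chemosensory receptor genes had counts. Krt4, Krt20, Ina and Nefl, named after their values were seen, were at 0 to 0.287 CPM in the other 7 libraries and each at 2.09 CPM in that library, which is the level of Krt8 there. Krt18 had 3.44 CPM in that library and 3.25 CPM in MI library A of 1 day. The part of such background in the Krt8 and Krt18 values of that library was not tested. The part of mesothelial, epicardial or epithelial cells in the keratin counts was not tested either.

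**Figure D4:**
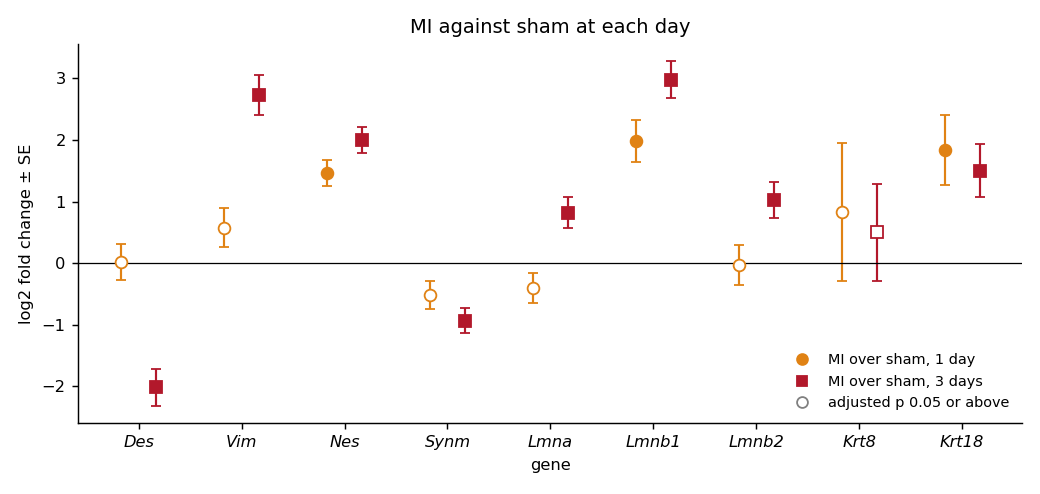
Log2 fold change of MI over sham for the 9 genes, with SE bars, at 1 day (orange circles) and 3 days (red squares). Filled symbols have an adjusted p under 0.05: 3 genes at 1 day, all higher, and 8 genes at 3 days, of which Des and Synm are lower.

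Counted together, 3 of the 9 genes rose at 1 day and 0 fell by edgeR's test, where 19.3% of all 15508 genes rose and 19.7% fell, 39.0% in all. At an unadjusted p under 0.05, 1 member (Synm) was lower at 1 day. At 3 days 6 rose and 2 fell, where 31.7% of all genes rose and 23.7% fell, 55.4% in all. The count at 3 days was 5 without MI library A or without sham library B of 3 days. MI and sham did not overlap for 5 of 9 genes at 1 day, beside 67.3% of all genes, and for 8 of 9 at 3 days, beside 81.0% of all genes. Between the sham groups 5 of 9 members and 45.3% of all genes did not overlap. The median log2 fold change of the 9 was 0.58 at 1 day and 1.03 at 3 days, beside 0.12 and 0.16 over all genes tested. DESeq2 and limma-voom gave the same counts of members on both days.

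The MI effect differed between days for 3 members, higher at 3 days for Vim and Lmna and lower for Des, where 13.2% of all genes were higher and 11.3% lower, 24.5% in all. Without MI library A of 1 day 5 members passed this test, without sham library B of 1 day 0, and without MI library A or B of 3 days 1. Within MI hearts, 3 members were higher at 3 days than at 1 day (Vim, Lmnb1 and Lmnb2) and Des was lower, where 23.4% of all genes were higher and 22.0% lower, 45.4% in all. These comparisons share libraries with those of MI against sham. Between the sham groups, 3 days against 1 day, 0 of 9 members and 0% of all genes were called by edgeR. At an unadjusted p under 0.05, 1 member (Lmna) and 1211 of all genes passed, and DESeq2 and limma-voom also called 0 members.

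The authors' deposited table for 1 day, which runs as MI over sham, gave a log2 fold change of 1.38 for Nes (adjusted p = 4.7e-05) and 1.73 for Lmnb1 (adjusted p = 0.00409). In the authors' deposited table Krt18 at 1 day was 1.33 with an adjusted p of 0.179, above the threshold of 0.05. The authors' deposited table for 3 days runs as sham over MI, so a positive value there means lower in MI. In that authors' deposited table Des was at 2.17, Synm at 1.09, Vim at -2.51, Nes at -1.81 and Lmnb1 at -2.78. Lmna was at -0.64, Lmnb2 at -0.84 and Krt18 at -1.27 (adjusted p = 0.0475) in the authors' deposited table. Once turned to MI over sham, the signs in the authors' deposited table of 3 days were those of the present fit for all 9 members. That direction was itself read from the signs over all genes in the present fit, so the match is no separate evidence. At 1 day the signs matched for all members but Des, at -0.02 in the authors' deposited table and 0.02 here.

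Genes that work with these filaments were read from 3 lists. The nuclear envelope partners, 22 genes of lamin-binding proteins, the bridge to the cytoskeleton and lamin processing, had 2 higher and 2 lower members at 1 day, beside 19.3% and 19.7% of all genes, with a median log2 fold change of -0.17. The nuclear pore protein gene Nup153 rose to 199 and 210 CPM after MI at 1 day, against 80.3 and 73.4 CPM after sham surgery (1.41, SE 0.16, adjusted p = 0.000296 by edgeR). Fnta, a subunit of the enzyme that attaches farnesyl to lamins, fell to 56.1 and 49.2 CPM after MI, against 110.0 and 119.0 CPM after sham surgery (-1.12, SE 0.18, adjusted p = 0.00143). At 3 days 10 of these 22 genes were higher and 4 lower, beside 31.7% and 23.7% of all genes, with a median of 0.21. DESeq2 called 8 of them higher.

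The rises at 3 days included Tmpo, which encodes lamina-associated polypeptide 2, with 225 and 238 CPM after MI, against 88.9 and 78.3 CPM after sham surgery (1.47, SE 0.16, adjusted p = 4.45e-05 by edgeR). Tor1a, which encodes the nuclear envelope ATPase torsin-1A, had 36.9 and 34.6 CPM after MI, against 13.1 and 8.24 CPM after sham surgery (1.74, SE 0.28, adjusted p = 0.000514). The 4 that fell at 3 days, named after their values were seen, were Sun1, Sun2, Syne1 and Tor1aip1. The first 3 encode SUN and nesprin proteins, which link the lamina to the cytoskeleton. Lbr, the lamin B receptor gene, rose by 1.10 at 3 days (SE 0.23, adjusted p = 0.00265) and was also named after its value was seen.

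**Figure D5:**
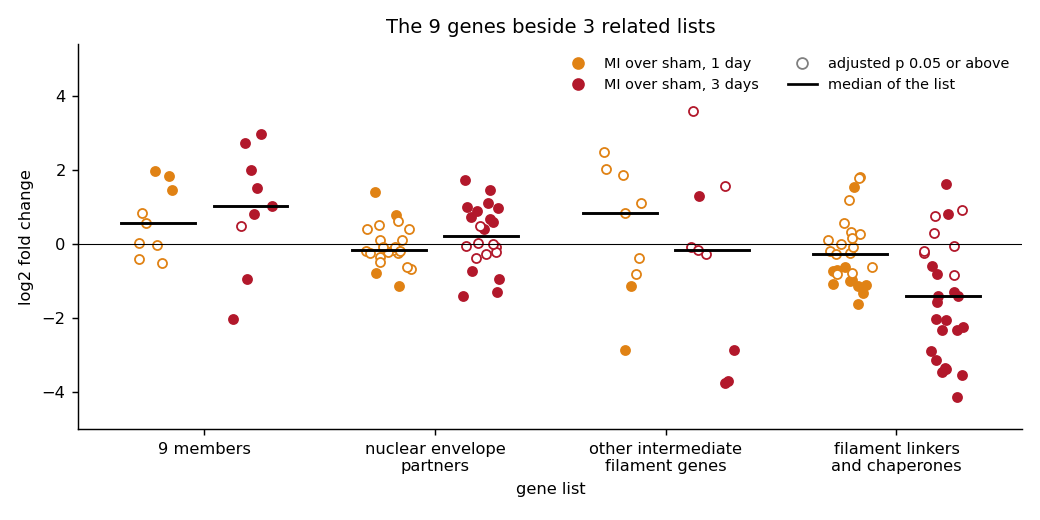
Log2 fold change of MI over sham at 1 day (orange) and 3 days (red) for the 9 genes and for 3 lists of related genes, with filled points under an adjusted p of 0.05 and black bars at list medians. The linkers and chaperones have the lowest median at 3 days, -1.41.

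Of 25 other intermediate filament genes, 9 had enough counts to be tested, and 0 rose and 2 fell at 1 day by edgeR, DESeq2 and limma-voom, with no further riser at an unadjusted p under 0.05. Over all genes 19.3% rose and 19.7% fell at 1 day by edgeR, and the median log2 fold change of the 9 was 0.83. The genes above that median, named after their values were seen, were Bfsp1, Krt7, Krt14 and Krt19, none of them called. They had 0.162 to 0.892 CPM in MI library A of 1 day and 1.72 to 3.08 CPM in MI library B. Sync, the muscle filament protein syncoilin, fell to 12.6 and 11.4 CPM after MI, against 25.8 and 26.7 CPM after sham surgery at 1 day (-1.12, SE 0.22, adjusted p = 0.0037). It stood at 2.71 and 3.58 CPM at 3 days after MI, against 23.4 and 22.6 CPM after sham surgery (-2.86, SE 0.23, adjusted p = 7.67e-06). Krt222, an atypical keratin-related gene, changed by -2.85 log2 units at 1 day (adjusted p = 0.000316) and by -3.7 at 3 days (adjusted p = 8.03e-06). At 3 days 1 of the 9 rose by edgeR and limma-voom and 0 by DESeq2, and 3 fell by each. This stood beside 31.7% of all genes higher and 23.7% lower by edgeR, with a median of -0.16 for the 9. Those past the threshold but below the level set for naming, or of a smaller change, were Krt80 (1.3, adjusted p = 0.029) and Bfsp2 (-3.75, adjusted p = 0.0249), named after their values were seen.

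The 27 linkers and chaperones tie filaments to discs, membranes and Z-discs, or guard and degrade them. At 1 day 1 rose and 10 fell, beside 19.3% and 19.7% of all genes, with a median of -0.26. DESeq2 called 2 higher and 13 lower at 1 day, and limma-voom 2 higher and 10 lower. At 3 days 2 rose and 18 fell, beside 31.7% and 23.7% of all genes, with a median of -1.41. The desmosomal linker desmoplakin (Dsp) had 155 and 140 CPM after MI at 3 days, against 1610 and 1790 CPM after sham surgery (-3.53, SE 0.21, adjusted p = 1.95e-06 by edgeR). The giant sarcomere protein gene Ttn, also a cardiomyocyte marker here, changed by -4.14 at 3 days (SE 0.38, adjusted p = 1.8e-05). Hspb1, a small heat shock protein that binds filaments, had 895 and 365 CPM after MI at 1 day, against 266 and 164 CPM after sham surgery. It was the 1 gene of the list that rose at 1 day by edgeR (1.55, SE 0.37, adjusted p = 0.00992). It was lower at 3 days (-1.3, SE 0.38, adjusted p = 0.0151). Fblim1, a filamin-binding LIM protein gene, fell at 1 day (-1.61, SE 0.26, adjusted p = 0.00151).

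For each member the genes of nearest pattern were sought among the 10846 tested genes that averaged 5 CPM or more. The measure was the root mean square difference of log2 CPM over the 8 libraries, each gene centred on its own mean. Des was nearest to Usp20 and Hspb2, both at 0.12, and Synm to Nsmaf at 0.07 and Dlg1 at 0.11. Vim was nearest to Fscn1 at 0.13 and Kcnab2 at 0.15, and Nes to Rhoc at 0.12 and Atp8b1 at 0.16. For the lamins the nearest were Vars (0.07) and Klhl25 (0.11) for Lmna, Neurl3 (0.21) and Vav1 (0.23) for Lmnb1, and Zdhhc16 (0.12) and Frmd8 (0.13) for Lmnb2. Krt18 was nearest to Slc39a10 at 0.22 and Smoc1 at 0.23, while Krt8 had no gene nearer than Zfp930 at 0.53, followed by Enpp6 at 0.54. The libraries share their depth and scaling across genes, so these values describe this set of 8 libraries.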

How the data were processed

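The deposited files held, per time point, the authors' raw read counts per gene symbol, all whole numbers, read counts per transcript, and the authors' DESeq2 table of log2 fold changes and p-values, per the file headers. The submitters' processing notes name TopHat2 2.0.14 and Bowtie2 2.2.5, HTSeq, SAMtools 0.1.2, FastQC, DESeq2 and mm10, with roles not stated. For annotation and strand setting the sources used here state nothing. Of tested genes, 97.9% had the sign of MI over sham in the authors' table of 1 day and 5.12% in that of 3 days, which was read as sham over MI.

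Both count tables were joined by symbol (24062 genes). After edgeR's filterByExpr, 15508 genes were tested and 8554 were not. All 8 libraries were fitted by group with TMM scaling (R 4.3.3, edgeR 4.0.16, robust option, common dispersion 0.0602). The SE is the log2 fold change divided by the square root of F, and the 95% interval is the value ± 1.96 SE. The script was tested on simulated data. DESeq2 1.42.0, limma-voom (limma 3.58.1), other scalings and filters, transcript reads summed to genes and each library left out were the alternatives. With 1 library left in a group, it is assumed to vary like the others. Ratios within a library used the counts as they were, with 0.5 counts added only as an alternative. They were tested by a 2-sided exact permutation within days.

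The members and lists were chosen with earlier results of these data known. Named beyond the 9 members were, by rule, the 2 called genes of largest absolute change per related list and day with a mean of at least 5 CPM, and the 2 genes nearest in pattern to each member, predicted-gene symbols left out. Exceptions are marked as named after their values were seen. The marker gene Muc16 was not analysed here. Positions and promoters come from RefSeq tables of GRCm38.p6, which is mm10. The NCBIM37 genome was not used, being another build. Unique reads and RPKM in the transcript tables were not used. The mice are separate, with 2 animals a group. Each edgeR p-value rests on a spread between animals that is pooled over all groups and drawn toward that of other genes.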

Additional observations from a re-analysis of the deposited data

Results flagged for a closer look

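The MI effect differed between 1 and 3 days for 3 of the 9 genes, by the test of the difference itself in edgeR's fit of all 8 libraries. For Des the effect at 3 days minus that at 1 day was -2.03 on the log2 scale (SE 0.41, adjusted p = 0.00737). For Vim it was 2.14 (SE 0.45, adjusted p = 0.00811). For Lmna it was 1.22 (SE 0.35, adjusted p = 0.0327), and the sham level at 3 days was below that at 1 day. Each of these calls was lost without sham library B of 1 day, with adjusted p of 0.0793, 0.0529 and 0.0814.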

How the results depend on the processing

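No paired analysis was possible because the count columns carry no replicate number. Of 781 fold changes of members under an alternative, 699 kept direction and side of the threshold, 32 lost their call, 9 gained one and 42 changed sign, among them 1 that also gained a call (Des at 1 day without MI library A). The count of members with a changed MI effect between days was 3, and 0 to 5 with a library left out; the count called at 3 days was 8, and 5 to 8. No called member changed sign under any setting. Des at 1 day changed sign with median-of-ratios size factors (-0.028), DESeq2 (-0.029), limma-voom (-0.058), no low-count filter (-0.056) and the libraries of that day alone (-0.03), and ranged from -0.68 to 0.44 with a library left out. Lmnb2 at 1 day changed sign with library size alone (0.239), a mean of at least 1 CPM (0.032), transcript reads (0.101) and with both B libraries of 1 day left out (0.169), an alternative chosen after seeing the data, and ranged from -0.81 to 0.36. Between sham groups, Lmnb2 changed sign with library size alone (0.193), limma-voom (0.010), no filter (0.022), a mean of at least 1 CPM (0.006) and transcript reads (0.060), and Nes with library size alone (0.022). With a library left out, Krt8 ranged from -0.57 to 2.53 at 1 day, -0.70 to 0.96 at 3 days, -2.03 to 1.07 for the difference and -0.79 to 1.73 for MI at 3 days against 1 day. The same ranges were -0.80 to 0.42 for the difference of Krt18, and -0.023 to 0.47 for Nes and -0.094 to 0.45 for Krt18 in MI at 3 days against 1 day. Between sham groups they were -0.69 to 0.18 for Vim, -0.18 to 0.24 for Lmnb2, -0.084 to 2.43 for Krt8 and -0.01 to 1.15 for Krt18. The cause was not tested. Library size alone moved the median of all genes to 0.398 at 1 day and 0.428 at 3 days, against 0.117 and 0.164 with TMM. Krt8 had 3 to 52 counts a library, and its libraries of 1 group differed up to 5.95-fold.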
